A study of Homo sapiens with 3 samples.

Results

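The 54 cytochrome P450 genes of a metabolism-focused CRISPR knockout library are described here, in a screen of MIA PaCa-2 cells, an established line from a human pancreatic ductal adenocarcinoma. They were taken by name, as every gene whose symbol starts with CYP and a digit, with the sterol demethylase gene CYP51A1 set aside, and they make up 54 of the 2978 genes and 540 of the 30197 guides listed. Transduced cells were selected with puromycin and then grown for 14 days with apilimod, which inhibits the lipid kinase PIKfyve, or with its solvent DMSO, or were harvested at day 0 as the initial population. Each of these 3 groups is 1 library of genomic DNA from pooled flasks of 1 cell line, so there were no replicates. The labels give apilimod at 200 nM and the methods name a different concentration, so the dose was not settled. Every test below compares these libraries with each other and not the conditions.

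Cytochrome P450 enzymes are haem proteins that insert an oxygen atom into small lipophilic molecules. Those of the endoplasmic reticulum draw electrons from the reductase POR, some with help from cytochrome b5, and those of mitochondria draw them from ferredoxin and its reductase. Some members clear drugs and other foreign compounds, chiefly in the liver, and others make or break down steroid hormones, bile acids, vitamin D, retinoic acid and fatty acid mediators in the tissues that need them. A guide RNA directs Cas9 to cut its target gene, and a guide that becomes rarer as the cells divide marks a gene whose loss slowed them.

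The libraries held 25599416 counts with apilimod, 26276517 with DMSO and 24695476 in the initial population. P450 guides took 1.59% of the counts with apilimod, 1.57% with DMSO and 1.43% in the initial population, where they are 1.79% of the guides. Each P450 gene had 10 guides, and 49 of the 540 had fewer than 100 counts at day 0 and were set aside, which left 491 guides. All 54 genes kept the 6 guides needed for a gene score, from 7 guides for CYP1A1 to 10 guides for 19 genes. The kept P450 guides had a median of 567 initial counts, those of other genes 688, and the 487 guides against intergenic sequence that served as controls 1199. A guide's log2 change is taken between its shares of 2 libraries, and the gene score is the mean log2 change over the guides of a gene, given with its SD over guides.

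Many P450 genes lie in clusters of close relatives, and 32 of the 54 have another of these genes within 1 Mb. The sequences of the library's own guides were not used here. To show how alike the genes are, all candidate Cas9 sites, 20 bases followed by NGG, were listed in the coding exons of each gene in hg38 (GENCODE v44). At least 10% of these sites had a further perfect match elsewhere in the genome in 25 of the 54 genes. The share was 86.2% in CYP21A2, which has a pseudogene copy, 68.2% in CYP2A6, 65.1% in CYP2D6 and 61.0% in CYP4A11, against 0.463% in CYP4B1 and none of 281 sites in CYP27B1. Of the 220 sites of CYP2A6, 103 also occur in CYP2A7. The following 3 sites are shown because each is identical in 2 P450 genes within 1 Mb of each other. The NGG is in capitals and the position is that in the first gene.
CYP2A6 and CYP2A7, chr19:40849941-40849963, plus strand: ccaagtgaatggtgaacacgGGG
CYP4A11 and CYP4A22, chr1:46941347-46941369, plus strand: cagaagcagaatgagcagggAGG
CYP3A4 and CYP3A7, chr7:99784037-99784059, plus strand: caggagaagccaggtttccaTGG
A guide to such a site would have a perfect target in both genes.

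Most P450 genes could not be told apart from the control guides in either arm. With apilimod, 5 of the 54 genes fell below the control guides and 0 rose above them, where 29.0% of all 2969 genes tested were lower and 0.236% higher. With DMSO, 2 of the 54 were lower and 0 higher, where 18.9% of all genes were lower and 0.842% higher. A gene was called when its guides differed from the control guides of the same libraries at a Benjamini-Hochberg adjusted p under 0.05 over all genes, under a two-sided exact rank-sum test. At an unadjusted p under 0.05 the same test took in 8 P450 genes with apilimod, all lower, and 9 with DMSO, of which 6 were lower and 3 higher. That is 14.8% of the P450 genes with apilimod and 16.7% with DMSO, where 40.1% of all genes with apilimod and 29.7% with DMSO had such a p. The median P450 gene score was 0.08 with apilimod and 0.11 with DMSO on the log2 scale. The median over all genes was -0.04 with apilimod and -0.03 with DMSO, and that of the control guides was 0.22 with apilimod and 0.14 with DMSO. The P450 medians thus lay above those of all genes and below those of the control guides in both arms. The control medians are over single guides and the others over gene means, so the measures differ. With each gene scored by the median of its guides, the P450 median was 0.15 with apilimod and 0.13 with DMSO. The median over all genes was then -0.01 with apilimod and 0.03 with DMSO.

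**Figure D1:**
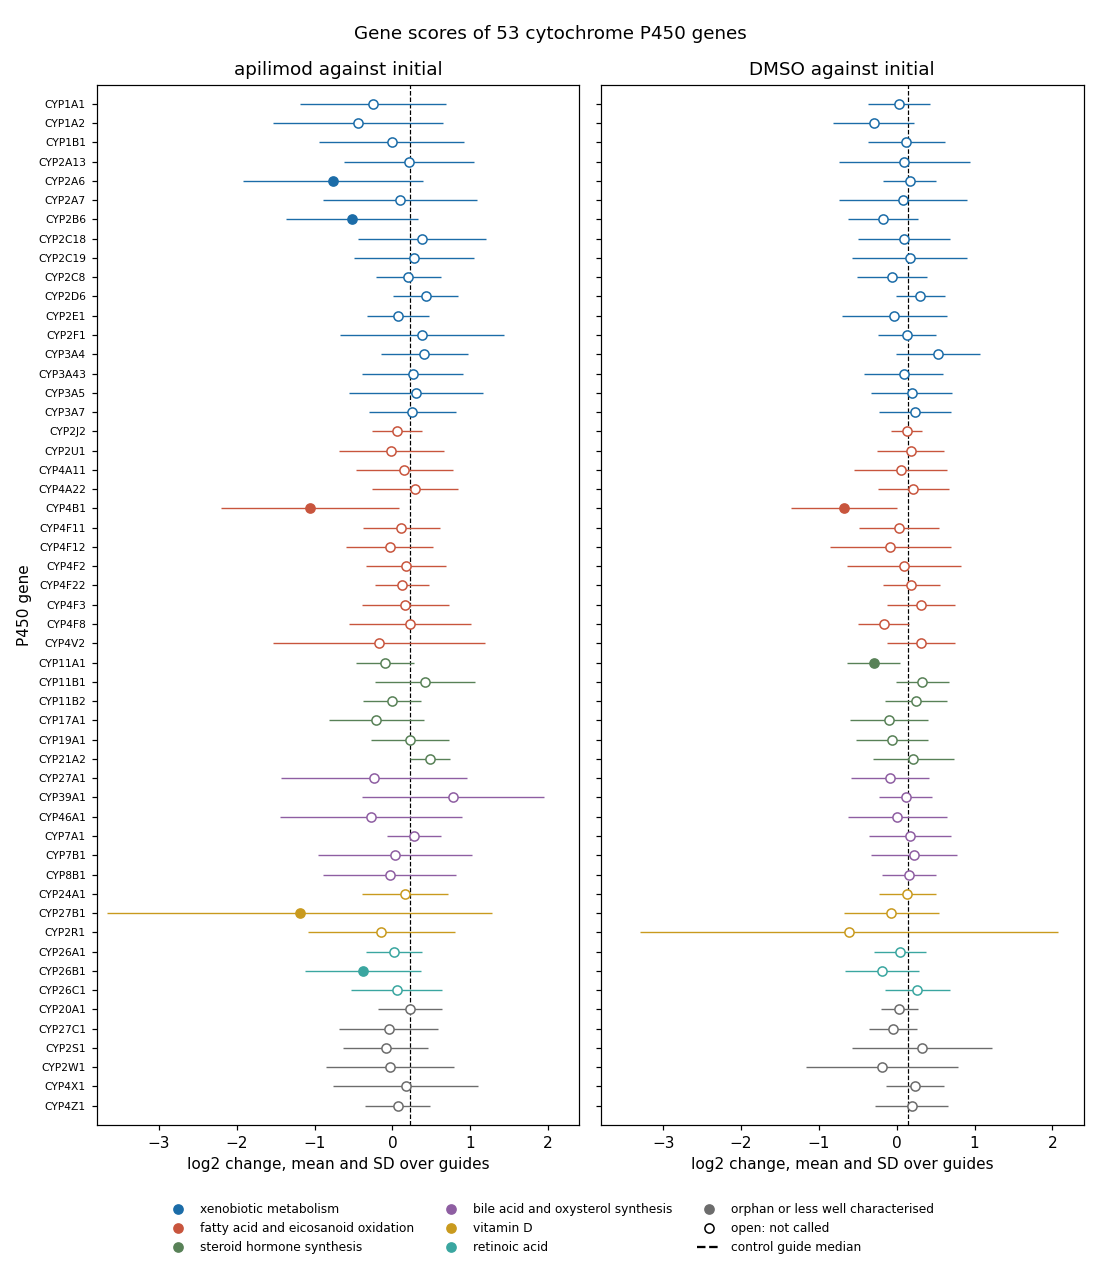
Gene scores of 53 of the 54 P450 genes (rows, coloured by role) with apilimod (left) and with DMSO (right), as the mean log2 change against the initial population with its SD over guides. Filled points are called genes, 5 with apilimod and 2 with DMSO, and the dashed lines are the control guide medians of 0.22 with apilimod and 0.14 with DMSO.

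All calls depended on the use of control guides for comparison. Set against all guides that target genes instead, 0 of the 54 were lower in either arm, 1 was higher with apilimod, CYP21A2, and 2 were higher with DMSO, CYP3A4 among them. The control guides themselves were uneven in the apilimod library. For those with 100 to 200 initial counts the median log2 change was 1.91 with apilimod and -0.06 with DMSO (20 guides), whereas the 49 P450 guides of that depth had medians of 0.33 with apilimod and 0.13 with DMSO. When only the control guides with at least 300 initial counts were used, the same 5 genes with apilimod and the same 2 with DMSO were lower. These control guides were still uneven with apilimod. Their median was 0.38 at 300 to 600 initial counts, 0.32 at 600 to 1200 and 0.12 at 1200 or more. P450 guides of these depths had medians of 0.11, 0.06 and 0.13. This setting therefore did not match the depths, and cannot show that the calls are free of them.

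The 18 genes of xenobiotic metabolism belong to enzyme families that oxidise drugs, procarcinogens and other foreign compounds. With apilimod 2 of them were lower and 16 were not called, and with DMSO 0 were called (by the exact rank-sum test, 4 had an unadjusted p under 0.05). For this and each role group below, the shares of all genes were 29.0% lower with apilimod and 18.9% with DMSO. By the same test, 40.1% of all genes with apilimod and 29.7% with DMSO had an unadjusted p under 0.05. The median score of the 18 genes was 0.23 with apilimod and 0.11 with DMSO, close to the control medians. CYP2A6 (chr19:40843541-40850447, minus strand) encodes the main nicotine oxidase of the liver. Its 8 kept guides summed to 5948 counts with apilimod, 8095 with DMSO and 6401 in the initial population. The apilimod library was thus the lowest of the 3 and the DMSO library the highest. The gene score was -0.76 ± 1.16 with apilimod and 0.17 ± 0.34 with DMSO (SD over 8 guides). All 8 guides lay below the control median with apilimod and 2 of 8 with DMSO, and the apilimod difference was called (exact rank-sum test, adjusted p = 0.00189). Guide 5 changed most, with 13 counts with apilimod, 148 with DMSO and 141 in the initial population, and without it the score with apilimod was -0.39. CYP2A7 and CYP2A13, which share sites with CYP2A6, had scores of 0.10 ± 0.99 and 0.21 ± 0.83 with apilimod (SD over 10 guides each) and were not called.

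CYP2B6 (chr19:40991282-41018398, plus strand) encodes an enzyme that clears bupropion and efavirenz. Its 10 guides summed to 7510 counts with apilimod, 8073 with DMSO and 7742 in the initial population, again lowest with apilimod. The gene score was -0.52 ± 0.85 with apilimod, with 9 of 10 guides below the control median (adjusted p = 0.00486, exact rank-sum test), and -0.18 ± 0.45 with DMSO, with 8 of 10 guides below and no call (exact rank-sum test, adjusted p = 0.0630). Guide 4 carried the largest change, with 71 counts with apilimod, 287 with DMSO and 261 in the initial population, while guide 8 ran the other way with 1840 counts with apilimod, 1424 with DMSO and 859 in the initial population.

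The highest score with DMSO was that of CYP3A4, the most abundant drug-clearing P450 of the liver. CYP3A4 had 6648 counts with apilimod, 7130 with DMSO and 4824 in the initial population, so both arms lay above the initial population. Its score was 0.41 ± 0.56 with apilimod and 0.53 ± 0.54 with DMSO (SD over 10 guides). The DMSO value was not called (exact rank-sum test, adjusted p = 0.0632). CYP2D6, which metabolises codeine and many antidepressants, scored 0.43 ± 0.42 with apilimod and 0.30 ± 0.32 with DMSO (SD over 10 guides), neither called. CYP1A2, the caffeine oxidase, lay at the other end at -0.45 ± 1.09 with apilimod and -0.30 ± 0.52 with DMSO (SD over 9 guides), with no call in apilimod (exact rank-sum test, adjusted p = 0.0801) or DMSO (exact rank-sum test, adjusted p = 0.0621). Guide 1 of CYP1A2 had 76 counts with apilimod, 332 with DMSO and 640 in the initial population. Without it the score with apilimod was -0.11. CYP2C18 scored 0.38 ± 0.82 with apilimod and 0.09 ± 0.59 with DMSO (SD over 8 guides). The scores of CYP1A1, CYP1B1, CYP2C8, CYP2C19, CYP2E1, CYP2F1, CYP3A5, CYP3A7 and CYP3A43 ranged between -0.25 and 0.38 with apilimod and between -0.06 and 0.24 with DMSO.

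The 12 genes of fatty acid and eicosanoid oxidation include most of the CYP4 family, whose members hydroxylate the end of fatty acid chains, and CYP2J2, which makes epoxides of arachidonic acid. In each arm 1 of the 12 was lower and 11 were not called, where 29.0% of all genes were lower with apilimod and 18.9% with DMSO. The called gene was CYP4B1 both times. The median score of the 12 genes was 0.12 with apilimod and 0.11 with DMSO. CYP4B1 (chr1:46757838-46819413, plus strand) encodes a P450 of the CYP4 family. Its 8 kept guides summed to 2917 counts with apilimod, 3308 with DMSO and 4589 in the initial population. Both arms thus lay below the initial population. The score was -1.06 ± 1.15 with apilimod, with 7 of 8 guides below the control median (adjusted p = 0.00125, exact rank-sum test), and -0.67 ± 0.68 with DMSO, with 8 of 8 guides below (exact rank-sum test, adjusted p = 0.00193). Guides 4 and 5 fell in both arms. Guide 4 had 260 counts with apilimod, 256 with DMSO and 824 in the initial population, and guide 5 had 132 counts with apilimod, 321 with DMSO and 727 in the initial population. Guide 2 was low with apilimod only, with 64 counts there, 401 with DMSO and 414 in the initial population, while guide 7 changed by -0.03 with apilimod and 0.13 with DMSO. The DMSO call also rests on the minimum of 100 initial counts. Guides 1 and 3 of this gene, with 99 and 92 initial counts, just missed it, and with a minimum of 30 the DMSO score was -0.32 and not called (exact rank-sum test, adjusted p = 0.173, with a range of 0.00134 to 0.173 over the alternatives).

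No other member of the group was called in either arm. CYP4V2, a fatty acid hydroxylase mutated in Bietti crystalline dystrophy, scored -0.17 ± 1.36 with apilimod and 0.31 ± 0.44 with DMSO (SD over 9 guides). Its guide 7 had 21 counts with apilimod, 117 with DMSO and 193 in the initial population. Without that guide the score with apilimod was 0.21. CYP4F8, which hydroxylates prostaglandins in the seminal vesicle, scored 0.23 ± 0.79 with apilimod and -0.17 ± 0.33 with DMSO (SD over 8 guides). CYP2J2 had the most even guides of all 54 genes with DMSO, at 0.13 ± 0.20, and scored 0.06 ± 0.32 with apilimod (SD over 9 guides). The 8 others, CYP2U1, CYP4A11, CYP4A22, CYP4F2, CYP4F3, CYP4F11, CYP4F12 and CYP4F22, ranged between -0.04 and 0.29 with apilimod and between -0.08 and 0.31 with DMSO.

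The 6 steroid hormone genes run from cholesterol to the adrenal and sex steroids. With apilimod 0 of the 6 were called. By the exact rank-sum test 2 of the 6 had an unadjusted p under 0.05 there, both lower, where 40.1% of all genes had one. With DMSO 1 of the 6 was lower, where 18.9% of all genes were. CYP11A1 (chr15:74337759-74367646, minus strand) encodes the side-chain cleavage enzyme, which opens steroid synthesis in mitochondria. Its 8 kept guides summed to 7081 counts with apilimod, 6205 with DMSO and 7672 in the initial population, lowest with DMSO. The score was -0.10 ± 0.37 with apilimod (exact rank-sum test, adjusted p = 0.124) and -0.29 ± 0.34 with DMSO (exact rank-sum test, adjusted p = 0.0115), and 7 of 8 guides lay below the control median in each arm. Its lowest guide with DMSO stood at -0.75 and its highest at 0.18. CYP21A2, the adrenal 21-hydroxylase, stood at the upper end with 0.48 ± 0.25 with apilimod and 0.22 ± 0.53 with DMSO (SD over 8 guides). CYP11B1, which makes cortisol, scored 0.42 ± 0.65 with apilimod and 0.33 ± 0.34 with DMSO (SD over 8 guides). CYP17A1, the 17-hydroxylase and lyase, scored -0.21 ± 0.61 with apilimod and -0.10 ± 0.50 with DMSO (SD over 9 guides), and CYP19A1, the aromatase, 0.23 ± 0.50 with apilimod and -0.06 ± 0.47 with DMSO (SD over 10 guides). CYP11B2, the aldosterone synthase, scored -0.01 ± 0.37 with apilimod and 0.25 ± 0.39 with DMSO (SD over 10 guides). None of these was called.

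The 6 genes of bile acid and oxysterol synthesis include CYP7A1, the rate-limiting enzyme of bile acid synthesis, and CYP46A1, which hydroxylates cholesterol in neurons. In both arms 0 of the 6 were called and 0 had an unadjusted p under 0.05 (exact rank-sum test). CYP7A1 scored 0.28 ± 0.34 with apilimod and 0.17 ± 0.53 with DMSO (SD over 9 guides). The group held the highest P450 score with apilimod, that of CYP39A1 (chr6:46549580-46652830, minus strand), an oxysterol 7-hydroxylase. Its 8 kept guides summed to 8240 counts with apilimod, 6404 with DMSO and 5444 in the initial population, highest with apilimod. The score was 0.78 ± 1.17 with apilimod and 0.12 ± 0.34 with DMSO, and was not called with apilimod (exact rank-sum test, adjusted p = 0.417). Guide 10 had 1192 counts with apilimod, 171 with DMSO and 106 in the initial population, and without it the score with apilimod was 0.40. The 4 others, CYP7B1, CYP8B1, CYP27A1 and CYP46A1, ranged between -0.27 and 0.03 with apilimod and between -0.09 and 0.22 with DMSO.

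The 3 vitamin D genes activate the hormone in succession, CYP2R1 at carbon 25 and CYP27B1 at carbon 1, and CYP24A1 breaks it down. With apilimod 1 of the 3 was lower, near the 29.0% of all genes that were. With DMSO 0 of the 3 were called and 0 had an unadjusted p under 0.05 (exact rank-sum test). CYP27B1 (chr12:57762334-57768986, minus strand) had 5152 counts over its 10 guides with apilimod, 5915 with DMSO and 5876 in the initial population. Its score was -1.19 ± 2.47 with apilimod, against -0.07 ± 0.61 with DMSO. With apilimod 9 of 10 guides lay below the control median (adjusted p = 0.00565, exact rank-sum test), and with DMSO 5 of 10. Most of the size came from guide 3, which had 0 counts with apilimod, 176 with DMSO and 230 in the initial population. Against a floor of 3 counts its share was at least 59.9-fold lower than in the initial population, and the gene score with the guide at that floor was -0.99 ± 1.88, so that the gene ranked lowest of the P450 genes with apilimod as scored but above CYP4B1 at the floor. Without guide 3 the score was -0.44, and with a minimum of 300 initial counts it was -0.25 and the call was lost (exact rank-sum test, adjusted p = 0.0712, with a range of 0.00565 to 0.329 over the alternatives).

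CYP2R1 had a guide at 0 counts in the other arm, and that guide fell with apilimod too. Its guide 3 had 40 counts with apilimod, 0 with DMSO and 248 in the initial population, at least 66.2-fold lower with DMSO. The gene score was -0.14 ± 0.95 with apilimod and -0.61 ± 2.69 with DMSO (SD over 10 guides). With guide 3 at the floor the DMSO score was -0.41 ± 2.08. Without guide 3 the score was 0.14 with apilimod and 0.21 with DMSO. The gene was not called with DMSO (exact rank-sum test, adjusted p = 0.957), and 4 of 10 guides lay below the control median. CYP24A1 scored 0.16 ± 0.55 with apilimod and 0.14 ± 0.36 with DMSO (SD over 10 guides).

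The 3 retinoic acid genes encode the CYP26 hydroxylases that clear retinoic acid. With apilimod 1 of the 3 was lower, near the 29.0% of all genes that were. With DMSO 0 of the 3 were called. By the exact rank-sum test 1 of the 3 had an unadjusted p under 0.05 with DMSO, lower, near the 29.7% of all genes that had one. CYP26B1 (chr2:72129238-72147862, minus strand) had 13196 counts over its 10 guides with apilimod, 13933 with DMSO and 14339 in the initial population, the deepest of the called genes. Its score was -0.38 ± 0.74 with apilimod, with 10 of 10 guides below the control median (adjusted p = 0.00382, exact rank-sum test), and -0.19 ± 0.48 with DMSO, with 7 of 10 guides below (exact rank-sum test, adjusted p = 0.120). Guide 6 had 52 counts with apilimod, 189 with DMSO and 272 in the initial population, and without it the score with apilimod was -0.15 with the call kept (exact rank-sum test, adjusted p = 0.0133, with a range of 0.00382 to 0.522 over the alternatives). CYP26A1 scored 0.02 ± 0.36 with apilimod and 0.04 ± 0.33 with DMSO (SD over 9 guides), and CYP26C1 0.05 ± 0.58 with apilimod and 0.27 ± 0.42 with DMSO (SD over 10 guides).

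The 6 orphan or less well characterised genes, CYP2S1, CYP2W1, CYP4X1, CYP4Z1, CYP20A1 and CYP27C1, had scores between -0.09 and 0.23 with apilimod and between -0.19 and 0.32 with DMSO. In both arms 0 were called and 0 had an unadjusted p under 0.05 (exact rank-sum test).

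**Figure D2:**
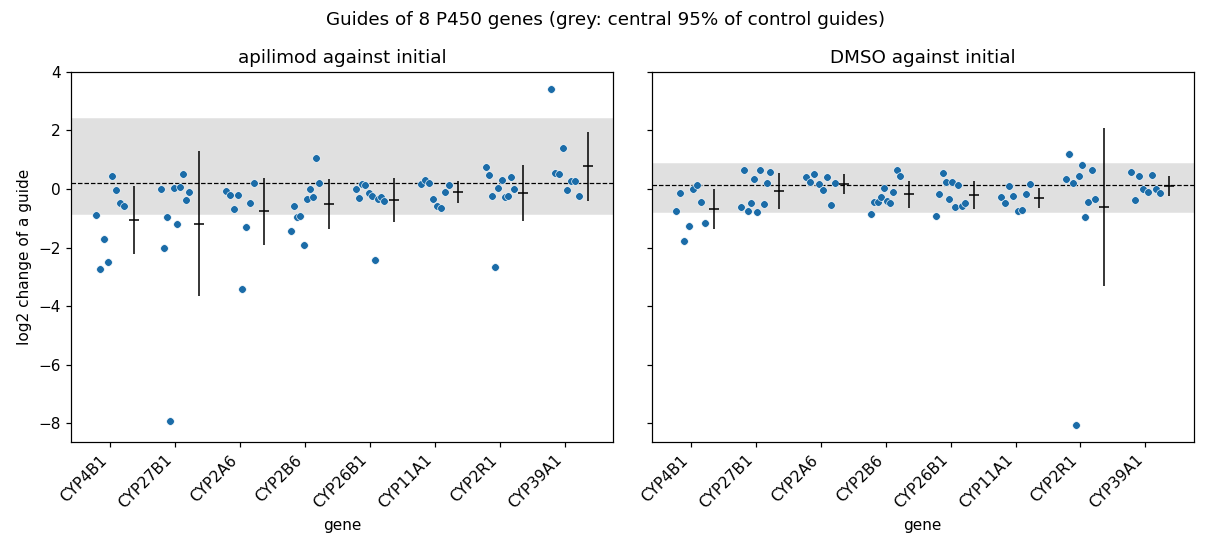
Log2 changes of single guides of the 6 called P450 genes and of CYP2R1 and CYP39A1 with apilimod (left) and with DMSO (right), against the initial population. The bars beside the points give the mean and SD over guides, the grey band holds the central 95% of the control guides, which is wider with apilimod, and the guides at 0 counts of CYP27B1 with apilimod and CYP2R1 with DMSO lie far below all others.

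The guides of the called genes did not move as 1 block, and with apilimod the lowest guide of a called gene lay between -7.90 (CYP27B1) and -1.92 (CYP2B6). Over all 491 kept P450 guides, 33 had a log2 change under -1 with apilimod (6.72%) and 16 with DMSO (3.26%). For the control guides these were 9 (1.85%) with apilimod and 4 (0.821%) with DMSO, and for guides of other genes 12.0% with apilimod and 10.1% with DMSO. These shares were not matched for initial counts. With apilimod, 14.3% of P450 guides and 0% of control guides lay under -1 at 100 to 200 initial counts. The same shares were 16.7% and 8% at 200 to 300, and 6.76% and 1.67% at 300 to 600. They were 2.55% and 2.88% at 600 to 1200, and 1.41% and 0.823% at 1200 or more. In the opposite tail, 36 P450 guides had a log2 change over 1 with apilimod (7.33%) and 17 with DMSO (3.46%), so the P450 guides spread about equally to both sides. Of the control guides 11.9% lay over 1 with apilimod and 0.411% with DMSO, and of the guides of other genes 5.06% with apilimod and 1.81% with DMSO. The SD of P450 guides was 0.85 with apilimod and 0.65 with DMSO.

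Set directly against DMSO, the apilimod library held no called P450 gene. Of the 54, 0 were lower and 0 higher, where 0.640% of all genes were lower and 0.0674% higher, and 3 (5.56%) had an unadjusted p under 0.05 by the exact rank-sum test, all lower, where 11.2% of all genes had one. For this comparison the scores of each arm were rescaled to put the control median at 0 and the median of 26 nucleotide synthesis genes at -1, while the log2 ratios given are unscaled. The median log2 ratio was 0.01 over the P450 genes, -0.01 over all genes and 0.01 over the control guides, and 27 P450 genes lay on each side of the control median. CYP27B1 had a ratio of -1.12 ± 2.42, or -0.92 ± 1.86 with its guide 3 at the floor, with an exact rank-sum adjusted p of 0.252. Its scaled difference, in SD units over all genes, gave z = -3.93, and without guide 3 the ratio was -0.42. CYP2A6 had a ratio of -0.93 ± 1.16, which lay above that of CYP27B1 as scored and below it at the floor, with 6 of 8 guides below the control median (z = -3.34, exact rank-sum test, adjusted p = 0.103). It was lower with a minimum of 30 initial counts, which returned guide 3 of this gene with 16 counts with apilimod, 113 with DMSO and 88 in the initial population, at a ratio of -1.13 (exact rank-sum test, adjusted p = 0.0321, with a range of 0.0321 to 0.379 over the alternatives). CYP3A4 was the third with an unadjusted p under 0.05, at a ratio of -0.12 ± 0.69. Next after CYP27B1 and CYP2A6 in the ratio were CYP4V2 at -0.48 ± 1.02, CYP2S1 at -0.41 ± 0.87 and CYP4B1 at -0.38 ± 1.05. Without the guide farthest from the gene's median, the ratio was -0.24 for CYP4V2, -0.20 for CYP2S1 and -0.07 for CYP4B1. At the upper end were CYP39A1 at 0.66 ± 1.03, CYP2R1 at 0.47 ± 1.79 and CYP4F8 at 0.39 ± 0.87, none of them called. Without the farthest guide, CYP39A1 had a ratio of 0.35 and CYP4F8 of 0.21. The place of CYP2R1 rests on its guide 3, with 0 counts with DMSO: its ratio was 0.27 ± 1.19 with that guide at the floor and -0.08 without it.

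The genes with repeated target sites had higher median scores than the others, which is given here without a test. The 25 genes with at least 10% of candidate sites repeated had a median score of 0.23 with apilimod and 0.16 with DMSO. The 29 genes below that share had medians of -0.03 with apilimod and 0.03 with DMSO. Over the 54 genes, which share libraries and in part target sites, the share of repeated sites and the score had Pearson's r of 0.29 with apilimod and 0.40 with DMSO, and Spearman's rho of 0.37 with apilimod and 0.35 with DMSO. Of the called genes, CYP2A6 and CYP2B6 lie among the 25, and CYP4B1, CYP27B1, CYP26B1 and CYP11A1 among the 29. The 32 genes with a neighbour within 1 Mb had a median score of 0.16 with apilimod and 0.11 with DMSO, against -0.01 with apilimod and 0.07 with DMSO for the 22 others. Whether the library's guides avoid repeated sites was not tested.

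**Figure D3:**
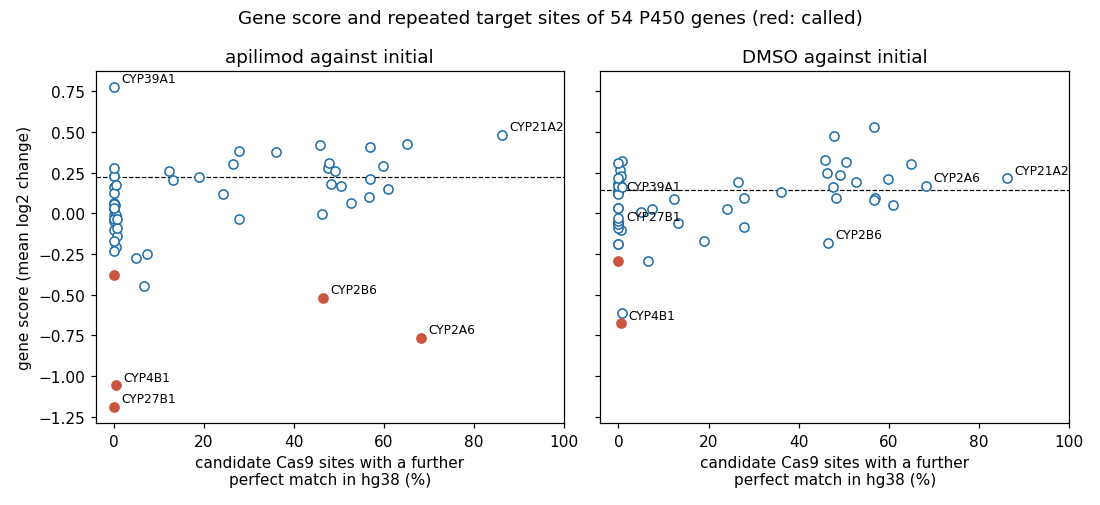
Gene score (vertical axis, mean log2 change against the initial population) and share of candidate Cas9 sites with a further perfect match in hg38 (horizontal axis, percent) for the 54 P450 genes with apilimod (left) and with DMSO (right). Red points are called genes, dashed lines are the control guide medians, and CYP21A2 lies at the far right with 86.2%.

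A list of 11 electron transfer genes, called donors here, was measured beside the P450 genes. Some serve P450 enzymes and several are known mainly for other work, as given below. Of the 11, 8 were lower with apilimod and the same 8 with DMSO. Among all genes, 29.0% were lower with apilimod and 18.9% with DMSO. The list was chosen with earlier results of these data known, so these shares describe it and test nothing. The donors had a median score of -1.03 with apilimod and -0.62 with DMSO, or -0.80 with apilimod and -0.62 with DMSO with guides at 0 counts at the floor. In each arm the median gene was CYB5R3, whose guide 6 had 0 counts with apilimod, 9 with DMSO and 157 in the initial population. Without that guide the donor median was -0.31 with apilimod and -0.43 with DMSO. POR, the reductase of the microsomal P450 enzymes, had a smaller change, at -0.23 ± 0.47 with apilimod (exact rank-sum test, adjusted p = 0.0131) and -0.38 ± 0.50 with DMSO (exact rank-sum test, adjusted p = 0.00549; SD over 9 guides). Its guides summed to 7849 counts with apilimod, 7858 with DMSO and 8856 in the initial population. FDXR, the ferredoxin reductase of mitochondria, fell most among the donors of mitochondrial P450 enzymes, to -3.00 ± 1.99 with apilimod and -2.81 ± 1.56 with DMSO, with 10 of 10 guides below the control median in each arm. FDX1, the ferredoxin that serves the steroid-making P450 enzymes, scored -1.21 ± 1.15 with apilimod and -1.96 ± 2.31 with DMSO (SD over 10 guides).

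Several of the donors that fell are known mainly for other work. FDXR, FDX1 and FDX1L also supply electrons in mitochondria for iron-sulphur clusters or protein lipoylation, and FDX1L scored -1.86 ± 1.33 with apilimod and -2.32 ± 2.51 with DMSO (SD over 9 guides). NDOR1, a diflavin reductase of cytosolic iron-sulphur cluster assembly, was the lowest of the list at -3.32 ± 3.17 with apilimod and -3.42 ± 2.87 with DMSO (SD over 10 guides). CYB5B, the cytochrome b5 of the mitochondrial outer membrane, scored -1.53 ± 1.31 with apilimod and -2.06 ± 2.23 with DMSO (SD over 10 guides), and CYB5R3, a cytochrome b5 reductase that also serves fatty acid desaturation, -1.03 ± 2.41 with apilimod and -0.62 ± 1.33 with DMSO (SD over 9 guides). Without its guide 6 CYB5R3 scored -0.24 with apilimod and -0.19 with DMSO. CYB5R4, also called lower in both arms, lay closest to the 0.05 limit among the called donors. With apilimod it scored -0.31 ± 0.69 (exact rank-sum test, adjusted p = 0.0438). With DMSO it scored -0.43 ± 0.68 (exact rank-sum test, adjusted p = 0.0465; SD over 10 guides). In each arm 7 of 10 guides lay below the control median. The donor calls were not tested against all guides of genes as the null. With guides at 0 counts at the floor, NDOR1 scored -3.12 with apilimod and -3.02 with DMSO, and with DMSO FDX1 scored -1.76 and FDX1L -2.10. CYB5A, CYB5R1 and CYB5R2 were not called. Between apilimod and DMSO 0 of the 11 were called (exact rank-sum test). Of the 11, 2 (18.2%) had an unadjusted p under 0.05 in the exact test, both higher, where 332 of all 2969 genes had one (11.2%) and 57 of these were higher. CYP11A1, CYP11B1, CYP11B2, CYP24A1, CYP27A1, CYP27B1 and CYP27C1 are P450 genes of mitochondria, whose enzymes draw on ferredoxin and its reductase. Of these, CYP27B1 alone was lower with apilimod and CYP11A1 alone with DMSO. Among all genes, 29.0% were lower with apilimod and 18.9% with DMSO.

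**Figure D4:**
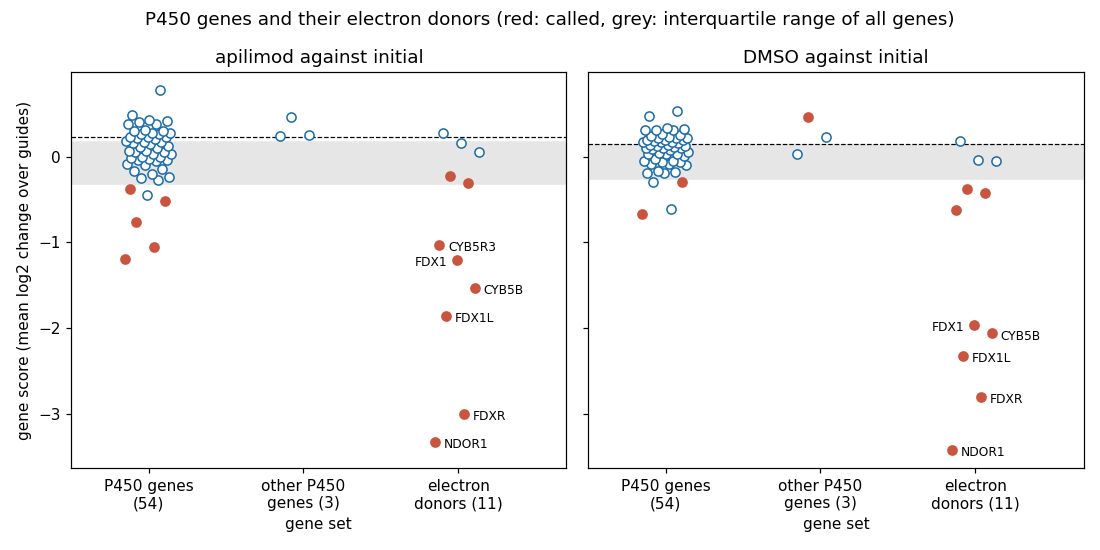
Gene scores (vertical axis, mean log2 change against the initial population) with apilimod (left) and with DMSO (right). The genes are the 54 P450 genes, the 3 other P450 genes and the 11 listed as electron donors, several known mainly for other work. Red points are called genes, the grey band is the interquartile range of all genes, the dashed lines are the control guide medians, and NDOR1 and FDXR lie lowest in both arms.

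Of the P450 genes outside the 54, CYP51A1 scored 0.46 ± 1.03 with apilimod and 0.46 ± 0.77 with DMSO (SD over 9 guides), and was higher with DMSO (exact rank-sum test, adjusted p = 0.0445). TBXAS1, the thromboxane synthase, scored 0.25 ± 1.07 with apilimod and 0.23 ± 0.42 with DMSO, and PTGIS, the prostacyclin synthase, 0.24 ± 0.95 with apilimod and 0.03 ± 0.35 with DMSO (SD over 10 guides each), and neither was called.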

How the data were processed

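Raw counts of reads for each guide were deposited, with 1 table per library. The authors trimmed both mates separately with cutadapt 4.1, aligned the combined reads with Bowtie2 2.4.5 to the library's guides within vector sequence and counted them with MAGeCK 0.5.9.5. No molecular identifiers were used, and a count is therefore a number of PCR copies rather than of cells.

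Scores were computed as the study's methods describe: a pseudocount of 1, division by the library total, the log2 change against the initial population and the mean over guides, with a minimum of 100 initial counts per guide and 6 guides per gene. After both filters 2969 genes remained. Each gene's guides were compared with 487 control guides in a two-sided exact rank-sum test, with Benjamini-Hochberg adjustment over all genes. The test was written with numpy 2.4.6, checked against scipy 1.17.1 and run on simulated data. Simulated guides drifted as control guides drawn without regard to depth, so the simulation could not show an effect of uneven control guides. The rank-sum test treats guides as the units, so its p-values carry no spread between cultures. The scaling list of nucleotide synthesis genes stands in for the core essential genes of the methods. Each ± value is an SD over the guides of a gene and carries no spread between cultures.

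Members, role groups and the donor list were chosen with earlier results of these data known. Values in full are given for members called in any comparison and for the 4 lowest and 4 highest scores in each, which named 18 genes, 1 of which is not reported here. Of the 16 partner symbols, 14 were measured. Gene positions and candidate sites come from GENCODE v44 and hg38. Settings varied were the count minimum, pseudocount, null guides, scaling and gene summary. Control guides with at least 300 initial counts and the removal of a gene's most deviant guide were added after the data were seen.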

Additional observations from a re-analysis of the deposited data

How the results depend on the processing

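The median P450 gene scores moved by less than their spread over genes under every setting tried, although the median log2 ratio of apilimod over DMSO, 0.01, was -0.01 with a minimum of 300 initial counts and with the median over guides. The counts of called genes moved more. With all guides of genes as the null, lower calls were 0 for apilimod (5 otherwise) and 0 for DMSO (2 otherwise), and higher calls were 1 for apilimod and 2 for DMSO (0 otherwise). Library-wide lower calls were then 225 for apilimod and 221 for DMSO, against 862 for apilimod and 560 for DMSO. A minimum of 30 initial counts gave 1 lower call for DMSO and 1 for apilimod against DMSO, CYP2A6. For apilimod, lower calls were 7 with no minimum, the same 5 among them, and 4 with a minimum of 300, of which 3 were shared with the 5 and 1 was CYP1A2. CYP2A6 kept too few guides to be tested at 300. For DMSO with no minimum, 1 of the 2 lower genes was shared. For DMSO, 1 gene was higher, against 0, with a minimum of 300 initial counts, with no minimum, with a pseudocount of 10 and with control guides of at least 300 initial counts. With the minimum of 300 this was CYP4V2. The causes were not tested.

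Of 54 results for named genes (18 genes in 3 comparisons), 7 were called, and each lost its call with all guides of genes as the null and kept its sign throughout. CYP4B1 with DMSO also lost it with a minimum of 30 and with no minimum, and CYP27B1 with apilimod with a minimum of 300. Of the 47 not called, 11 gained a call under some setting and 16 changed sign under some setting. A minimum of 300 initial counts left 46 of the 54 P450 genes with 6 guides. No paired analysis was possible because there was 1 library per group, and leaving out a replicate was not possible for the same reason.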
